A study of Mus musculus with 2 samples.

Results

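Genes for the initiation and elongation factors of translation were examined in a CUT&Tag library made with an antibody against ATF4. The set was defined by symbol: protein-coding genes of the RefSeq table of GRCm38.p6 that start with Eif1 to Eif6 or with Eef, without the eIF2 kinases Eif2ak1 to Eif2ak4 and without chromosome Y. It held 67 of 21883 protein-coding genes. CUT&Tag brings a transposase to the DNA around an antibody-bound protein, where it cuts and tags fragments for sequencing. The cells were primary neurons that had been cultured from embryonic C57BL/6 mouse cortex and hippocampus, with about 100000 cells per library. There was 1 ATF4 library and 1 library with control IgG. The IgG library was not analysed here, and the sources used here do not say whether these neurons had received hemin, the treatment used elsewhere in the study. A peak list of one antibody holds no expression values, so the labelled cell type could not be checked by its markers.

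Translation starts when eIF2 brings the initiator tRNA to the small ribosomal subunit, with eIF3 as a scaffold and eIF4 proteins joining the mRNA cap to it, and eEF1 and eEF2 then drive each elongation step. eIF2B recharges eIF2 with GTP. Under stress, phosphorylated eIF2 blocks eIF2B, general initiation slows, and the Atf4 mRNA is translated more. ATF4 is a leucine zipper transcription factor known for its binding at genes of amino acid synthesis and tRNA charging, and Eif4ebp1, which encodes a repressor of the cap-binding protein eIF4E, is a known ATF4 target.

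The deposited list held 7873 peaks, each with a fold enrichment over the caller's estimated background and a q-value. The number of fragments stacked at each summit (the highest point of a peak) was solved from these values. Peaks rested on 3 to 2206 fragments with a median of 4, and 41.0% rested on 3. There were no replicates. Intervals on fragments are exact Poisson intervals (95%), which account for counting error alone and treat PCR copies as if they were separate molecules.

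Of the 67 factor genes, 12 had a peak summit no more than 1 kb from either end of the gene. These were Eif2s2, Eif2b4, Eif3c, Eif3f, Eif3k, Eif3m, Eif1, Eif5a, Eif5b, Eef1a1, Eef1d and Eef2k. This was 17.9% of the set (Clopper-Pearson 95% interval 9.61% to 29.2%), beside a background of 8.10% (1768 of 21816) of all other protein-coding genes, a ratio of 2.21. The genes were chosen with earlier results of this library known, and many lie close to other genes, so the shares are given as a description with no test. When every peak was instead given to its nearest protein-coding gene, at any distance, 15 of the 67 genes (22.4%) had a peak, below the 25.1% of other genes. With summits inside the gene counted as well, the shares were 22.4% and 17.8%.

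**Figure D1:**
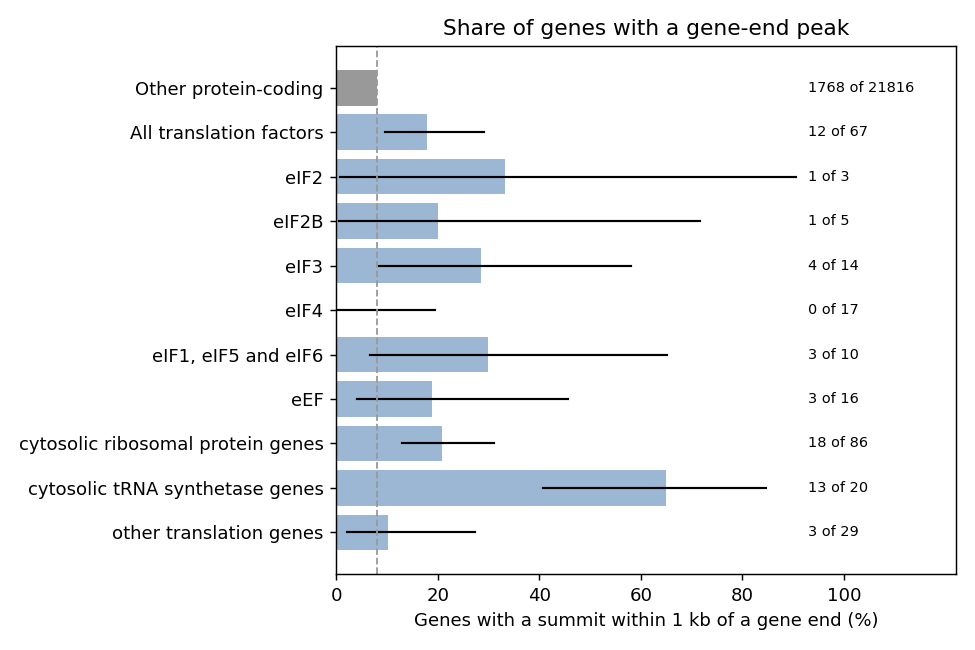
Bars show the share of genes (%) with a peak summit within 1 kb of a gene end, with Clopper-Pearson 95% intervals as black lines and counts at the right; the dashed line marks the 8.10% of other protein-coding genes. The eIF4 genes stood at 0 of 17 and the cytosolic tRNA synthetase genes at 13 of 20, with all 67 translation factor genes between them at 17.9%.

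Most of the 12 peaks were low. A -log10 q of 5 or more was reached by the 4 peaks of Eif1, Eif2s2, Eif3c and Eif5a (5.97% of the set, beside 2.73% of other genes), and the other 8 rested on 3 to 7 fragments. Peaks of 6 or more fragments stood at 7 genes of the set (10.4%), beside 3.72% of other genes, with Eef2k, Eef1a1 and Eif3f added to those 4. The median was 6 fragments, beside 5 for the 1515 other peaks at protein-coding gene ends. At least 20 fragments were found in 3 of the 12 (25.0%), beside 5.08% of those other peaks. Eif3c, with 20 fragments, stands exactly at this cut.

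**Figure D2:**
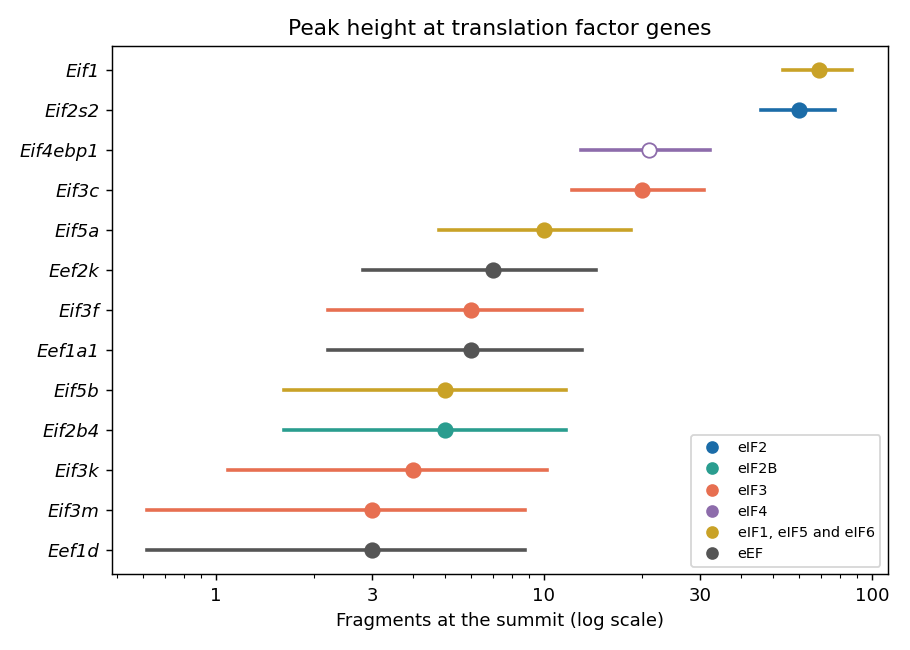
Points show fragments at the summit (log scale) and lines the exact Poisson 95% intervals for the 12 gene-end peaks and, as an open point, the strongest peak inside Eif4ebp1; colours give the complex. Eif1 (69 fragments) and Eif2s2 (60 fragments) stand above the others, and the 8 lowest intervals overlap each other.

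By complex the numbers of genes are small. Clopper-Pearson 95% intervals of the share with a gene-end peak were set beside the 8.10% of other genes. They held it for eIF2, eIF2B, eIF4, eEF and the group of eIF1, eIF5 and eIF6. For eIF3 the interval ran from 8.39% to 58.1% and lay just above that share. With a 3 kb window it was unchanged but held the 11.3% of other genes. With at least 6 fragments it ran from 1.78% to 42.8% and held their 3.72%. The q-value limit and the limit at the median fold enrichment also brought the share of other genes inside it. It stayed above that share with the 500 bp window (6.63%) and with any overlap of the peak (8.37%). These intervals reflect only the number of genes counted, from 1 library, and were not adjusted for the number of complexes looked at, and no difference between complexes was tested.

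eIF2 has 3 subunits, and the X-linked gene for its gamma subunit is the one kept here. Of the 3 genes, 1 had a gene-end peak (33.3%, interval 0.840% to 90.6%), Eif2s2, which encodes the beta subunit. It lay at chr2:154892337-154892959, with a summit 131 bp inside the gene from its start, 60 fragments (45.8 to 77.2), a background of 1.93 fragments and a fold enrichment of 20.8 (q = 3.04e-62). The peak ranked 20 of 7873 by fold enrichment and 56 by fragments, and 5 by fold enrichment among the 1527 peaks at protein-coding gene ends. No other annotated gene end lay within 1 kb of this summit. A second peak, 14502 bp into the gene, rested on 3 fragments (0.619 to 8.77). Eif2s1, for the alpha subunit that the stress kinases phosphorylate, had its nearest summit at 11936 bp from an end, with 4 fragments. Eif2s3x, for the gamma subunit, also had no gene-end peak.

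The 250 bases before each RefSeq gene start were read for the genes whose peak reaches into them. The parts inside the peak are shown for the 3 tallest of the 12 with a peak across the start, and for Eif3f, whose whole peak including the summit lies there. They were chosen after the peaks were seen. Sequences are from RefSeq (GRCm38.p6), on the strand of the gene. Capitals mark TGATG or TGACG on either strand, so that they read CATCA or CGTCA where the other strand holds the letters.
Eif2s2 (chr2:154892907-154892959, minus strand): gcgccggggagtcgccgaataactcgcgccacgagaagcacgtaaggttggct
Eif1 (chr11:100319699-100319948, plus strand): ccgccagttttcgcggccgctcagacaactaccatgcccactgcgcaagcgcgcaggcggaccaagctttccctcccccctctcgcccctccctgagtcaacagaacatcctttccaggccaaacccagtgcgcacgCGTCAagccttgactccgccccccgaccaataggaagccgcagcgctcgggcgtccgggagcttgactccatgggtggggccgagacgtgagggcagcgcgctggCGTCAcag
Eif3c (chr7:126566367-126566410, minus strand): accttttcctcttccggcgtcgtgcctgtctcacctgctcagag
Eif3f (chr7:108934241-108934411, plus strand): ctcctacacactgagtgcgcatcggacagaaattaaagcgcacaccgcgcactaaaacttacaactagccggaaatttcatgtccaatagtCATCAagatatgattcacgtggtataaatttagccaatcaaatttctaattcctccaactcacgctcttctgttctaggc
The stretches of Eif2s2 and Eif1 were 64.2% and 66.8% G and C, with 8 and 24 CpG pairs, and that of Eif3f was 42.1%. In Eif1 the letters TGACG occur at 2 places on the opposite strand. The summits of Eif2s2, Eif1 and Eif3c lie past the gene start, outside the bases shown.

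Among the 5 genes of eIF2B, the exchange factor of eIF2, Eif2b4 had a gene-end peak (20.0%, interval 0.505% to 71.6%, beside 8.10% of other genes) and Eif2b1, Eif2b2, Eif2b3 and Eif2b5 had none. The Eif2b4 peak at chr5:31192909-31193080 was low, with 5 fragments (1.62 to 11.7) and a fold enrichment of 4.83 (q = 5.64e-04). Its summit lay 164 bp inside the gene from its start and 287 bp from an end of the neighbouring gene Snx17.

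The scaffold complex eIF3 had a gene-end peak at 4 of 14 genes (28.6%, interval 8.39% to 58.1%, beside 8.10% of other genes), Eif3c, Eif3f, Eif3k and Eif3m. Eif3c, which encodes a core subunit, had the tallest, at chr7:126565895-126566410, with 20 fragments (12.2 to 30.9) and a fold enrichment of 13.5 (q = 4.29e-21), 172 bp inside the gene from its start. The small nuclear RNA gene Gm25579 also has an end within 1 kb of this summit. The peak of Eif3f at chr7:108934241-108934411 held 6 fragments (2.20 to 13.1), and its summit lay 168 bp before the gene start. That of Eif3k at chr7:28981966-28982212 held 4 fragments (1.09 to 10.2) and lay 149 bp before the start, but 11 bp from an end of Map4k1. Eif3m, at chr2:105016868-105017084, rested on 3 fragments (0.619 to 8.77), 51 bp inside the gene, with an end of the non-coding gene Gm38521 within 1 kb. Of the 4, the interval of Eif3c overlapped that of Eif3f, and it lay above those of Eif3k and Eif3m. The other 10 genes, including Eif3a and Eif3b of the same core, had no gene-end peak.

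None of the 17 genes named Eif4, for the cap-binding and helicase factors and their regulators, had a summit within 1 kb of a gene end. The interval of this share, 0% to 19.5%, includes the 8.10% of other genes, so the count does not set the eIF4 genes apart. The nearest case was Eif4ebp1. Its peak at chr8:27261147-27261744 had 21 fragments (13.0 to 32.1), a fold enrichment of 11.5 and q = 4.16e-18, inside the gene and 1103 bp from its nearer end. It lay just outside the window, and Eif5b, at 904 bp, was the member farthest from an end inside it. By fragments the Eif4ebp1 peak ranked 161 of 7873, and its interval overlapped that of Eif3c. A further summit inside Eif4ebp1, 1326 bp from the other end, rested on 3 fragments. Eif4b had a peak of 4 fragments (1.09 to 10.2) inside the gene, 1949 bp from its 3' end. With a 3 kb window these 2 genes counted, beside 11.3% of other protein-coding genes. The cap-binding gene Eif4e, the scaffold genes Eif4g1, Eif4g2 and Eif4g3 and the helicase genes Eif4a1, Eif4a2 and Eif4a3 had no summit in the gene body and none up to 3 kb beyond it.

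Among the 10 genes named Eif1, Eif5 or Eif6, gene-end peaks were found at 3, Eif1, Eif5a and Eif5b (30.0%, interval 6.67% to 65.2%, beside 8.10% of other genes). eIF1 takes part in start codon choice. Eif1 had the tallest peak of the set, at chr11:100319678-100320781, with 69 fragments (53.7 to 87.3), a fold enrichment of 10.6 and q = 1.63e-45. The peak was 1104 bp wide, beside a median of 207 bp over all peaks, and ran from before the gene start across it, with the summit 592 bp inside. The order of Eif1 and Eif2s2 by fragments is uncertain, since their intervals overlap. The background in the denominator of the fold was 5.59 fragments at Eif1, against 1.93 at Eif2s2. By fragments Eif1 ranked 11 and Eif2s2 ranked 20 of the 1527 peaks at protein-coding gene ends. By fold enrichment the order was reversed, with Eif1 at 91 and Eif2s2 at 5. Eif5a encodes a factor that helps ribosomes through difficult peptide bonds. Its peak at chr11:69921332-69921743 held 10 fragments (4.80 to 18.4; q = 5.56e-07), with the summit 539 bp inside the outermost gene start and 33 bp before another start that RefSeq lists. Eif5b, which joins the ribosomal subunits, had 5 fragments (1.62 to 11.7) at chr1:37997007-37997243. This summit lay 904 bp before Eif5b and 188 bp from an end of Txndc9. Eif1a, Eif1ax, Eif1ad, Eif1b, Eif5, Eif5a2 and Eif6 had no gene-end peak, nor had Eif2a and Eif2d, which carry eIF2 in their names but encode separate proteins.

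The 16 genes named Eef include elongation factors, their kinase and their methyltransferases, and Eef1akmt4 and the longer Eef1akmt4-ece2 share a start. Of the 16, 3 had gene-end peaks (18.8%, interval 4.05% to 45.6%, beside 8.10% of other genes), each of 7 or fewer fragments. Eef1a1, which encodes the factor that delivers charged tRNA, had 6 fragments (2.20 to 13.1) at chr9:78481455-78481735, 56 bp inside the gene from its start, with q = 9.25e-05. Eef2k encodes the kinase that inhibits eEF2. Its peak at chr7:120843094-120843314 held 7 fragments (2.81 to 14.4; q = 5.71e-05), and 8 fragments also met the tolerance of the solution. The summit lay 622 bp inside the outermost gene start and before another listed start, and the non-coding gene Gm36449 has an end within 1 kb of it. Eef1d, for an exchange factor subunit of eEF1, had 3 fragments (0.619 to 8.77) at chr15:75894330-75894545, 358 bp outside the gene and 43 bp from an end of Naprt. Eef2, Eef1a2, Eef1b2 and Eef1g had no gene-end peak. Eef2kmt had a peak of 3 fragments inside the gene, 4837 bp from an end.

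A strand could be read from the RefSeq promoter table for 11 of the 12 genes, and in all 11 the summit lay at the start end of the gene. Among other protein-coding genes with a gene-end peak and a strand, 91.8% (1296 of 1412) had a summit within 1 kb of the start. Counted from the listed starts alone, 11 of 51 factor genes (21.6%) had a peak, beside 8.17% of other genes. The summit lay inside the gene in 8 of the 12 and outside it in 4. Summit and gene were not always a single pair: 4 of the 12 summits also lay within 1 kb of an end of another protein-coding gene, and 3 of those (Eif5b, Eif3k and Eef1d) were nearer to that neighbour. With every peak that lies near an end of any other annotated gene left out, 5 of the 67 genes kept a gene-end peak (7.46%, interval 2.47% to 16.6%), beside 4.53% of other genes. These were Eef1a1, Eif1, Eif2s2, Eif3f and Eif5a.

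**Figure D3:**
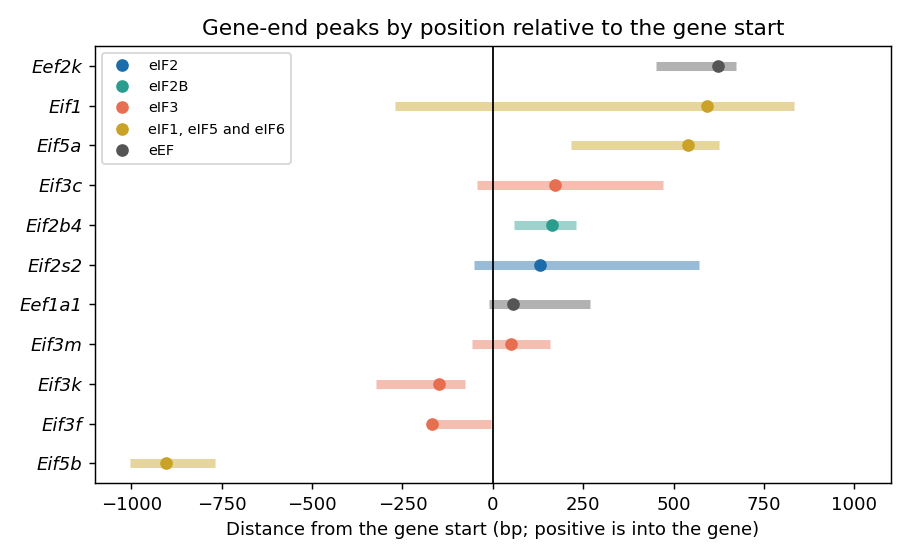
Each row is a factor gene with a peak at its start: the bar spans the peak and the point is its summit, as distance from the gene start in bp, with positive values into the gene. 8 summits lie inside the gene, Eif3k and Eif3f lie just before it and Eif5b lies 904 bp before it.

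The 55 factor genes without a gene-end peak had their nearest summit at 1103 bp to 490.1 kb from an end, with a median of 61.9 kb. Of these genes, 3 had a peak inside them (Eif4ebp1, Eif4b and Eef2kmt). Counting such peaks took the share from 17.9% to 22.4% for factor genes and from 8.10% to 17.8% for other genes, a larger rise for the others. A missing peak in a library where the smallest peaks rest on 3 fragments does not show that ATF4 was absent.

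**Figure D4:**
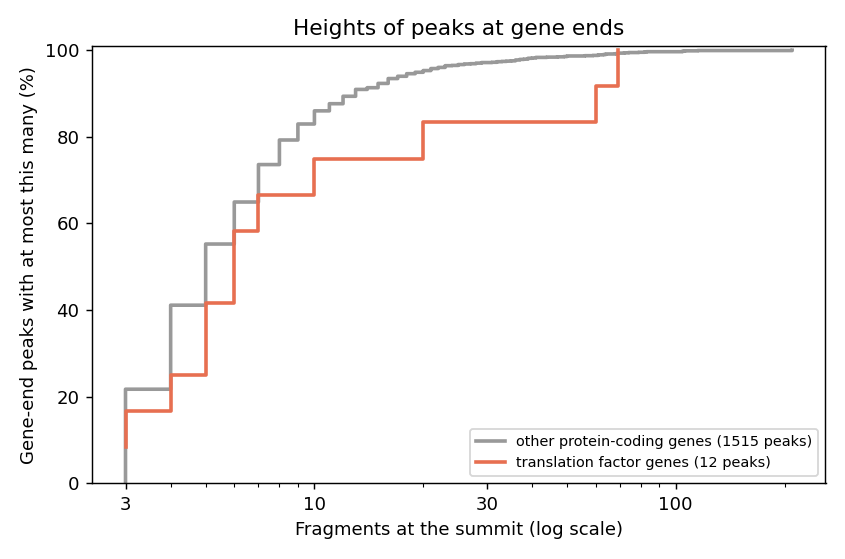
Steps show the cumulative share (%) of gene-end peaks with at most a given number of fragments at the summit (log scale), for the 12 peaks of translation factor genes and 1515 peaks of other protein-coding genes. The factor line lies below the other from 3 to 60 fragments: 58.3% of the factor peaks hold 6 or more fragments, beside 44.8% of the others, and 25.0% hold 20 or more, beside 5.08%.

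The window moved the set by a few genes. Within 500 bp of an end, 8 of the 67 genes had a summit (11.9%), beside 6.63% of other genes, and Eif1, Eif5a, Eif5b and Eef2k dropped out. Any overlap of the peak with the 1 kb window, in place of the summit, added Eif4ebp1 and gave 13 genes (19.4%), beside 8.37%. Peaks above the median fold enrichment of 4.33 left 9 genes (13.4%), beside 5.39%.

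The factor genes also differed in their surroundings. An end of another protein-coding gene lay within 1 kb of an end of 47.8% of them, beside 24.7% of other protein-coding genes. Their promoters, the 250 bases before to 50 after the start, were richer in CpG. The observed to expected CpG ratio was at least 0.6 in 90.2% of the 51 genes with an entry, beside 47.2% of all 17491 protein-coding genes with one. Genes with CpG-rich promoters had peaks more often in general: within that class the shares with a gene-end peak were 21.7% (10 of 46, interval 10.9% to 36.4%) for factor genes and 13.5% for other genes. The part of gene spacing and CpG content in the main gap was not tested. Expression of these genes was not measured in this library.

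**Figure D5:**
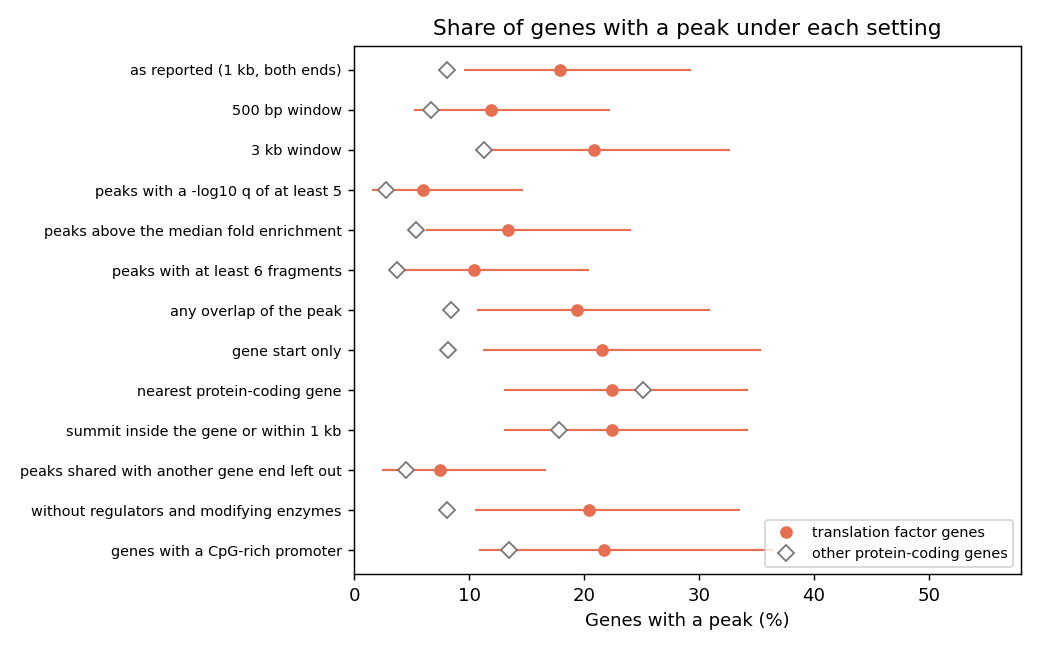
Points show the share of translation factor genes with a peak (%) with Clopper-Pearson 95% intervals, and diamonds the share of other protein-coding genes, for the reported setting and 12 others. The points lie right of the diamonds in every setting but the nearest-gene assignment (22.4% and 25.1%). The diamond lies within the interval there and for the 500 bp window and the -log10 q limit. It also does so with summits inside the gene counted, with shared peaks left out, and with CpG-rich promoters only.

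Other gene groups of translation were counted in the same way. Cytosolic ribosomal protein genes had a gene-end peak in 18 of 86 (20.9%) and cytosolic tRNA synthetase genes in 13 of 20 (65.0%), beside the background of 8.10%. Among 29 further genes, for the eIF2 kinases and phosphatase subunits, termination, poly(A) binding and control of translation, 3 had one (10.3%), near that background. Ppp1r15b, for a subunit that directs dephosphorylation of eIF2, had 210 fragments (182.6 to 240.4). Etf1, for the release factor that reads stop codons, had 12 fragments (6.20 to 21.0), and Pabpc1, for the poly(A)-binding protein, had 3. None of the 4 kinase genes had a gene-end peak. These lists are described by counts and the differences between them were not tested.

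The C/EBP-ATF response element, the composite site ATF4 is known to bind, was searched as TGATGNAA on both strands in the promoter windows. It occurred in 2 of 51 factor genes (3.92%), Eef2k and Eif2s3x, beside 4.13% of all protein-coding genes. Eif2s3x had no gene-end peak. In Eef2k the match lay before a listed start inside the gene, 7.84 kb from the summit of its peak; 30 bases around it (RefSeq, GRCm38.p6) are given with the match, on the opposite strand, in capitals.
Eef2k (chr7:120851094-120851123, plus strand): ctttctgcttgTTTCATCAagctcagcttg
The stricter TGATGCAA was found in none of the 51, beside 1.01% of all protein-coding genes. The windows held the summit for 3 of the 12 peaks, so the DNA at most of the summits was not searched. The 16 genes not in the promoter table were Eef1akmt1, Eef1akmt3, Eef1d, Eef1g, Eif1a, Eif6, Eif2b3, Eif3e, Eif3h, Eif3i, Eif3j2, Eif4e1b, Eif4e3, Eif4ebp1, Eif4ebp3 and Eif4g2.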

How the data were processed

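The authors deposited the peaks of 1 ATF4 library: position, summit, fold enrichment (a ratio), a display score, and p-value and q-value as -log10. The submitters' processing notes list FastQC, BWA, MACS2 2.1.2, deepTools and mm10. The threshold and the use of the IgG library in calling are not given in the sources used here, so fold enrichments cannot be read as enrichment over IgG. Fragments per summit were solved from the fold, taken as fragments plus 1 over background plus 1, and the Poisson p-value (-log10 p met within 0.001), which assumes the formulas of MACS2. The solution met 100% of the peaks, and 100.0% of 2000 simulated peaks were recovered. The simulated peaks were made with the same formulas, over a narrower range of fragments and background than the data. They therefore check the solving step only, and not whether the formulas apply. Library depth was unknown here. Genes came from the RefSeq table of GRCm38.p6, the assembly of mm10; both gene ends were used because it carries no strand, and strand came from the RefSeq promoter table. A gene counted when a summit lay within 1 kb of an end. Every member could be named. The members, lists and windows were chosen with earlier results of these data known. No set test was run. Alternatives changed the window, the peaks, the assignment, the members and the motif. Scripts ran in Python 3.11.15 with scipy 1.17.1, numpy 2.4.6, matplotlib 3.10.9 and pandas 2.3.3.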

Additional observations from a re-analysis of the deposited data

How the results depend on the processing

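The share of translation factor genes with a gene-end peak stayed within its own interval under 10 of 12 alternatives. It was 5.97% (other genes 2.73%) when a -log10 q of 5 or more was required, and 7.46% with peaks shared with another gene end left out; both alternatives keep fewer peaks. The share of the factor genes was below that of other genes under 1 alternative, the nearest protein-coding gene, which is among the 10. Staying within the interval describes the factor share alone, not its gap to other genes. The ratio of the shares, 2.21 as reported, ran from 0.892 with the nearest gene to 2.81 with at least 6 fragments. The factor interval held the share of other genes with the q limit, the 500 bp window and the nearest gene. The same held for inside summits, unshared peaks and CpG-rich promoters. By complex, 27 of 36 counts stayed within 1.5 times. With that q limit, eIF2B was at 0, eIF3 at 1 and eEF at 0. With at least 6 fragments eIF2B was at 0 and eIF3 at 2, and with peaks above the median fold enrichment eIF3 was at 2. Under each of these limits, and with the 3 kb window, the eIF3 interval held the share of other genes. With the 500 bp window the group of eIF1, eIF5 and eIF6 was at 0. The eIF4 count went from 0 to 2 with the 3 kb window and to 1 with any overlap of the peak. Without the pseudocount of 1 in the fold, 0.0889% of peaks could be solved, against 100%. The motif share of 3.92% was 0 for TGATGCAA, 21.6% for TGATG and 47.1% for TGACG. The last pair and the restriction to CpG-rich promoters were chosen after seeing the data. No paired analysis was possible because there is 1 library per antibody. With 3 fragments behind the lowest peaks, a gene without a peak may lie under the detection limit.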

Other observations

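The shorter sequences TGATG and TGACG, on either strand, occur in 39.2% and 26.2% of all 17491 protein-coding promoter windows. In the 51 factor genes TGATG was found in 21.6% and TGACG, which holds a CpG, in 47.1%. TGACG was found in 6 of the 11 factor genes with a gene-end peak (Eif2b4, Eif3k, Eef2k, Eif3c, Eif5a and Eif1) and in 18 of the 40 without one (45.0%). Over all protein-coding genes it was found in 41.4% of those with a gene-end peak and 24.9% of those without. TGATG was found in 5 of the 11 (Eif5b, Eif2b4, Eif3f, Eef2k and Eef1a1) and in 6 of the 40, while over all protein-coding genes the shares ran the other way, 34.8% with a gene-end peak and 39.6% without. The full cyclic AMP response element TGACGTCA was found in 1 factor gene, Eef2, which had no gene-end peak; its share was 1.96%, beside 2.54% of all protein-coding genes. In the 250 bases before the start alone, TGACG was found in 5 of the 11 (45.5%), without Eef2k, and in 18 of the 40 (45.0%). There TGATG was found in 4 of the 11 and 4 of the 40. These are letter counts, with no test.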
